A study of Mus musculus with 18 samples.

Results

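Expression of the ATP-binding cassette (ABC) transporter genes was measured in RNA of the retinal pigment epithelium (RPE) from both eyes of 9 *rd1* mice. Members were the protein-coding genes whose symbol starts with *Abca*, *Abcb*, *Abcc*, *Abcd* or *Abcg* followed by a number, and 46 of the 47729 genes in the count table met this rule, with 16 in subfamily A, 10 in B, 10 in C, 4 in D and 6 in G. Per the labels, all 18 samples were from *rd1* mice (FVB/N), which lack functional Pde6b and lose their rods, at P40. The methods of the study name fewer *rd1* pairs at this age than are labelled here, and also name P40 pairs of the wild-type strain CD-1, so the strain rests on the labels alone and whether all 9 mice were *rd1* was not tested. In the Best1-Nrf2 group (9 eyes), AAV carrying human Nrf2 under the RPE promoter Best1 was given with AAV-Best1-GFP. The control group was the other eye of the same 9 mice, which had AAV-Best1-GFP alone, so GFP and the background of each mouse were common to both groups. Per the paper's methods, the GFP and Nrf2 vectors had different capsids, and eyes given both had a larger total vector dose. The groups thus differed in vector dose and capsid as well as in Nrf2, and the part of these was not tested. The comparison asked which transporter genes changed in the RPE of the degenerating eye when Nrf2 was supplied there.

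ABC transporters are membrane proteins that use ATP to move lipids, sterols, peptides, drugs and organic anions across the plasma membrane or the membranes of organelles. The C subfamily holds the multidrug resistance proteins (MRPs), exporters of glutathione, glutathione conjugates and other organic anions, and some of its genes are known targets of Nrf2, a transcription factor that acts through antioxidant response elements. In the eye, the family is best known for *Abca4*, which clears retinoid-lipid adducts from photoreceptor outer segments, and for the transporters that return lipids from shed outer segments to the circulation.

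The RNA was collected from the eyecup after the retina had been removed, and it was amplified before sequencing. RPE genes were abundant, with *Rpe65*, the isomerase of the visual cycle, at 2021 ± 846 CPM (read counts scaled to a common library size) in control eyes, but 6 of 12 RPE markers were lower with Best1-Nrf2. At the threshold used for all these lists (adjusted p under 0.05, edgeR), 3.12% of all genes tested were higher and 1.13% lower. Of the 9 cone markers, 8 were lower, and their summed level was 296 to 2240 CPM in control eyes and 53.5 to 533 CPM with Best1-Nrf2. Of 14 macrophage and microglia markers, 9 were higher, with sums of 152 to 494 CPM and 163 to 670 CPM. The rod list had 1 higher and 3 lower of 8 tested (sums, 162 to 855 and 264 to 597 CPM), with *Nrl*, the rod transcription factor, under 1 CPM on average in both groups, the pericyte list had 0 and 2 of 7, the Müller glia list had 0 and 1 of 8, and the endothelial, fibroblast and melanocyte lists had 0 of 10, 0 of 8 and 0 of 7 (edgeR quasi-likelihood test; at an unadjusted p under 0.05, 0, 0 and 1, and by DESeq2 0, 0 and 0 and by voom 0, 0 and 1). In the rod list, the gene that rose was *Rom1* (146 to 400 CPM on average), which supplied most of the treated sums. *Sag* (164 to 6.53 CPM), *Pde6g* (68.4 to 5.44) and *Prph2* (44.8 to 3.30) fell. Of the 8 tested, 7 had a negative log2 fold change (median, -1.32). The part of all these cell types in the ABC results was not tested, and in RNA from a mixture fewer cells of a type and less RNA per cell cannot be told apart. The eyes of mice 3, 6 and 8 stood apart from the rest. The Best1-Nrf2 eye of mouse 6 had a larger sum of cone markers (533 CPM) than its control eye (296 CPM). That holds for the sum only, as *Arr3*, *Opn1mw*, *Gnat2*, *Pde6c* and *Cngb3* were lower in 9 of 9 mice. Control eye 8 had the lowest sum of RPE markers (11568 CPM). In mouse 3, the treated eye held the largest sums of RPE markers (68458 CPM, against 14073 to 52234 in the other treated eyes) and of melanocyte markers (12422 CPM). The RPE sums rest largely on *Ttr*, at up to 54488 CPM in a treated eye, and do not stand for the list as a whole. *Nfe2l2*, the mouse gene for Nrf2, was at 89.7 ± 17.8 CPM in control eyes and 453 ± 147 CPM with Best1-Nrf2, with the smallest within-mouse differences in mouse 8 (1.13 on the log2 scale) and mouse 6 (1.84). Whether reads of the human cDNA were counted there was not tested. Values after ± are the SD over the 9 eyes of a group for levels in CPM, and the SE for log2 fold changes (Best1-Nrf2 over control, n = 9 mice). The 5 genes that passed are given with and without mice 6 and 8, as are other members where a call changed. This choice was made after the data were seen, and these mice had the smallest *Nfe2l2* differences, so values without them are a description.

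Of the 46 ABC genes, 34 had enough counts to be tested, and 5 of them were higher in Best1-Nrf2 eyes at an adjusted p under 0.05 (edgeR quasi-likelihood test with mouse as a block, Benjamini-Hochberg over 18958 genes). This count was 3 to 5 with each mouse left out (3 without mouse 2, 3, 4, 5, 7 or 9, as *Abcb4* and *Abcc3* were lost) and 0 with the level of rod and cone or of macrophage and microglia markers as a term in the model. The 5 genes were *Abcc1*, *Abcc3* and *Abcc4* of subfamily C, *Abca8b* of subfamily A and *Abcb4* of subfamily B. No member was lower at this threshold (2 were at an unadjusted p under 0.05, 1 by DESeq2 and 2 by limma voom). Across all genes tested, 3.12% were higher and 1.13% lower, 4.25% in either direction. Among the 34, 11 had an unadjusted p under 0.05, against 12.8% of all genes. The other 12 genes could not be tested: *Abca14* and *Abcb5* had 0 counts in all 18 libraries, and the rest, *Abca6*, *Abca15*, *Abca16*, *Abca17*, *Abcb11*, *Abcc2*, *Abcc6*, *Abcc12*, *Abcg3* and *Abcg8*, had between 1 and 279 counts in all. A gene can pass the count filter through the group in which it is high, so counts over the 34 are a description. Without mice 6 and 8, left out after the data were seen, 6 members were higher and 1 lower, as *Abca13* and *Abcd2* were added. Without mice 3, 6 and 8, 5 were higher and 0 lower, as *Abca13* was added and *Abcb4* lost.

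By subfamily, 3 of 7 tested genes passed in C, 1 of 8 in B, 1 of 11 in A, 0 of 4 in D and 0 of 4 in G. At an unadjusted p under 0.05, D had 2 genes and G had 0, and DESeq2 and voom each called 1 lower in D and 0 in G. The median log2 fold change was 0.12 in C, 0.11 in A, 0.10 in B, 0.02 in D and -0.10 in G. It was 0.06 over the 34 genes and -0.03 over all genes tested. In C, 5 of 7 tested genes had a positive and 2 a negative log2 fold change, and its median is the value of *Abcc9*. The median of D moved to 0.23 without mice 6 and 8, those of B and C to 0.30 and 0.45 without the replicate block, and those of A, C and D moved when the level of rod and cone markers was a term in the model (-0.46, 1.00 and -0.25).

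**Figure D1:**
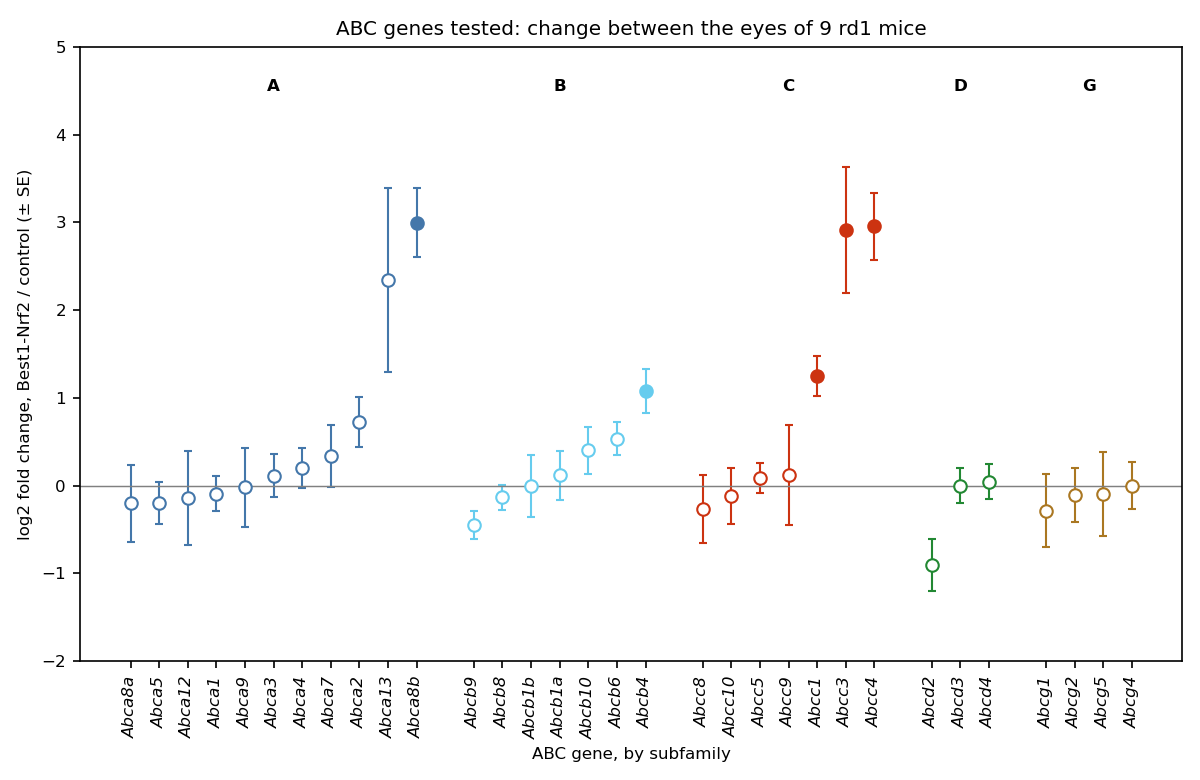
Log2 fold change (Best1-Nrf2 over control, y axis) of 32 of the 34 tested ABC genes (x axis), grouped by subfamily. Points are estimates from 9 mice, bars are the SE, and filled points are the 5 genes at an adjusted p under 0.05. *Abca8b* (3.00), *Abcc4* (2.95) and *Abcc3* (2.91) lie highest, and subfamilies D and G have no filled point.

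The promoters of the genes that passed are shown first, because Nrf2 acts through short elements near start sites. RefSeq windows on GRCm38.p6, from 250 bases before to 50 bases after a start site, were held for 34 of the 46 members, and for *Abcc4*, *Abca8b* and *Abcb4* among the 5 that passed. There was no entry for *Abcc1* and *Abcc3*. Capitals mark letters that match the core of the antioxidant response element, TGACNNNGC or TGAGNNNGC, read on both strands, and no place can match both forms on the same strand. *Abcc4*, on chromosome 14, minus strand, had windows at both of its listed start sites, the upstream start at chr14:118706170-118706469 and an internal start at chr14:118676882-118677181. *Abca8b* was at chr11:109995796-109996095 on the minus strand and *Abcb4* at chr5:8893471-8893770 on the plus strand.
Abcc4, upstream start: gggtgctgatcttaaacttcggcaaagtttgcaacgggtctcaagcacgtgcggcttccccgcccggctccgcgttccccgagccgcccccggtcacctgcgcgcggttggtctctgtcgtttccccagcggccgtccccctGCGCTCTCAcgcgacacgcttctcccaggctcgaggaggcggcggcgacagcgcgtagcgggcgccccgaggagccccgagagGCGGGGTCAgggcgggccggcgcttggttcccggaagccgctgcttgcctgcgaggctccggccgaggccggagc
Abcc4, internal start: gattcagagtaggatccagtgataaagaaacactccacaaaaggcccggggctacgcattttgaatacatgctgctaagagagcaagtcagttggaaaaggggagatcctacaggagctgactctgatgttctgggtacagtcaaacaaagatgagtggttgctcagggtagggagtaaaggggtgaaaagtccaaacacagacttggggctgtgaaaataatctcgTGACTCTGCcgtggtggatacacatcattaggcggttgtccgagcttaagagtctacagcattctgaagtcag
Abca8b: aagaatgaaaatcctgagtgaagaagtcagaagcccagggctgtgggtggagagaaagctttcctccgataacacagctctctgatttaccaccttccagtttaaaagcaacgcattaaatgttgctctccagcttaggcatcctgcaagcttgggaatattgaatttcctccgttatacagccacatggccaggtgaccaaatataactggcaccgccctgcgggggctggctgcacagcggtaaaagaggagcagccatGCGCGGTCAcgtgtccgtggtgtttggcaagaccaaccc
Abcb4: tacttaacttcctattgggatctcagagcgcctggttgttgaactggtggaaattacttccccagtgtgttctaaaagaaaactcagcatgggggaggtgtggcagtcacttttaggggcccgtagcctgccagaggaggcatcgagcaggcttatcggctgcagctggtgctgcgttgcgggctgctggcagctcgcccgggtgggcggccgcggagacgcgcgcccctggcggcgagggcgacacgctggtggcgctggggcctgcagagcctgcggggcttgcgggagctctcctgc
The upstream *Abcc4* window held GCGCTCTCA and GCGGGGTCA, both read on the opposite strand, at -108 and -25 from the start site, and the internal window held TGACTCTGC at -23. *Abca8b* had GCGCGGTCA at 11, on the opposite strand and after the start. *Abcb4* had no match in its window. Such letters were common: 27.8% of 32851 windows and 30.8% of 27025 genes held at least 1 match, and 9 of the 34 ABC genes did. Those were *Abca3*, *Abca8b*, *Abca9*, *Abcb1a*, *Abcb1b*, *Abcc2*, *Abcc4*, *Abcc10* and *Abcg8*. A match is a description of letters in this window, not a binding site, and *Abcb1a* and *Abcb1b* held one while their log2 fold changes were 0.12 and -0.01.

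Of the 8 exporters of glutathione conjugates and other organic anions, 5 could be tested, and 3 of them, *Abcc1*, *Abcc3* and *Abcc4*, rose, against 3.12% of all genes. *Abcc4* encodes MRP4, which exports cyclic nucleotides and organic anions, and glutathione along with them. The gene spans bases 118482692 to 118706219 of chromosome 14 (minus strand, GRCm38). It was at 22.2 CPM in the lowest, 39.7 in the median and 81.7 in the highest control eye, and at 89.1, 437 and 855 CPM with Best1-Nrf2. Every Best1-Nrf2 eye lay above every control eye, and the highest control value and the lowest treated value came from mouse 1 and mouse 6. *Abca8b* was the only other ABC gene of which this was true, and no member lay below in this way. Of all genes tested, 1.05% had treated eyes that all lay above the controls, 0.116% had them all below, and 1.17% had either. Mean levels were 44.5 ± 17.03 and 411 ± 257 CPM, and the log2 fold change was 2.95 ± 0.39 (adjusted p = 7.25e-04, edgeR, higher in 9 of 9 mice). The treated eyes fell into a lower set (mice 6, 8 and 3, at 89.1, 123 and 130 CPM) and a higher one (the other 6, from 418 CPM upwards). The within-mouse differences, from mouse 1 to mouse 9, were 2.36, 4.71, 2.55, 3.17, 3.46, 0.83, 4.01, 1.69 and 3.65 on the log2 scale. The smallest were those of mice 6 and 8, so the larger log2 fold change without these mice, 3.42, follows from leaving them out. With the level of rod and cone markers as a term in the model, the change was smaller and not called, as given below.

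*Abcc1*, chromosome 16, encodes MRP1, which exports leukotriene C4 and glutathione conjugates. It was at 44.9, 52.1 and 144 CPM in the lowest, median and highest control eyes and at 85.7, 169 and 296 CPM in those with Best1-Nrf2. The groups overlapped, because control eye 1 (144 CPM) was above the treated eyes of mice 3, 6 and 8. Within mice, the Best1-Nrf2 eye was higher in 9 of 9, by 0.36 (mouse 1) to 2.62 (mouse 2) on the log2 scale, and 3.12% of all genes were higher in 9 of 9 mice, 1.22% lower and 4.34% either. Of the 34 ABC genes, 4 were higher and 0 lower in 9 of 9 mice. The log2 fold change was 1.25 ± 0.23 (adjusted p = 0.00769, edgeR), or 1.33 without mice 6 and 8. The means were 71.0 ± 31.6 and 169 ± 65.0 CPM.

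*Abcc3*, chromosome 11, encodes MRP3, a basolateral exporter of glucuronides and bile salts in liver and gut. It was a rare transcript, at 0.046, 0.43 and 7.98 CPM in the lowest, median and highest control eyes and 1.46, 4.97 and 7.80 CPM with Best1-Nrf2. The highest control value was that of mouse 8, the only mouse in which the control eye was higher (7.98 against 1.49 CPM). The other 8 control eyes were at or under 1.04 CPM, below every treated eye. The log2 fold change was 2.91 ± 0.72 (adjusted p = 0.0410, edgeR, means 1.34 ± 2.51 and 4.60 ± 2.78 CPM), and 3.51 without mice 6 and 8 (adjusted p = 0.00223). The call was lost without mouse 1 (adjusted p = 0.0766), 2 (0.103), 3 (0.0617), 4 (0.108), 5 (0.1004), 7 (0.109) or 9 (0.0897), at log2 fold changes of 2.64 to 3.12, and in the model without the replicate block (1.81, adjusted p = 0.262).

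*Abcc5* and *Abcc10*, further MRP genes, were at 33.1 ± 8.87 and 8.56 ± 4.88 CPM in control eyes and 35.3 ± 9.69 and 7.68 ± 3.49 CPM with Best1-Nrf2, at log2 fold changes of 0.09 and -0.12. *Abcc2* (MRP2, the apical exporter of liver and kidney), *Abcc6* (known from pseudoxanthoma elasticum) and *Abcc12* were too low to test, at 279, 165 and 29 counts in all libraries together. Paired tests of the difference between related members set these values side by side. Over 16 pairs (2-sided exact sign-flip permutation test over 9 mice, smallest p 0.0039, Benjamini-Hochberg over the pairs), *Abcc4* minus *Abcc5* was 2.85 on the log2 scale (95% interval, 1.74 to 3.796; adjusted p = 0.025, larger in 8 of 9 mice). *Abcc1* minus *Abcc4* was -1.68 (95% interval, -2.27 to -0.94; exact test, adjusted p = 0.025). *Abcc1* minus *Abcc3* was -1.32, with an interval that included 0 (-2.70 to 0.35; exact test, adjusted p = 0.163), and -2.03 without mice 6 and 8 (adjusted p = 0.0357).

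**Figure D2:**
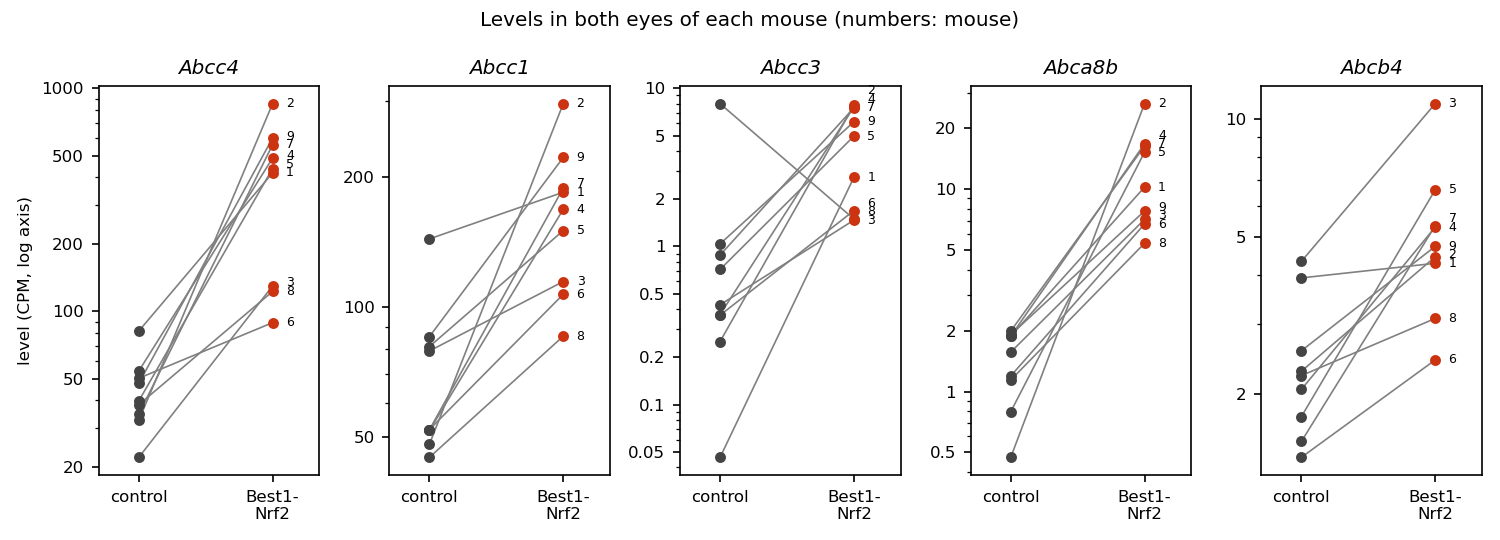
Level (CPM, log axis) of the 5 genes that passed, in the control eye (left) and the Best1-Nrf2 eye (right) of each of 9 mice; lines join the eyes of a mouse and numbers name the mouse. All lines rise except that of mouse 8 for *Abcc3*, and only *Abcc4* and *Abca8b* have treated eyes that all lie above the controls.

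The drug exporters at the plasma membrane had 0 of 3 genes past the threshold (0 at an unadjusted p under 0.05, and 0 by DESeq2 and by voom). *Abcb1a* and *Abcb1b*, the mouse P-glycoprotein genes, were at 4.30 ± 0.97 and 5.39 ± 2.56 CPM in control eyes and 5.02 ± 2.40 and 6.98 ± 8.72 CPM with Best1-Nrf2, at log2 fold changes of 0.12 ± 0.28 and -0.01 ± 0.35. Reads could be split between them, since 23.3% and 16.01% of their 31-base words occur in other genes, mostly in each other. *Abcg2*, the breast cancer resistance protein, was at 6.96 ± 2.50 and 7.91 ± 6.80 CPM (log2 fold change, -0.11, or -0.35 to -0.015 with each mouse left out, the first without mouse 6). *Abcc4* differed from both *Abcg2* and *Abcb1b*. *Abcc4* minus *Abcg2* was 3.01 (95% interval, 1.51 to 4.42) and *Abcc4* minus *Abcb1b* was 2.94 (1.58 to 4.25), each with an adjusted p of 0.025 in the exact sign-flip test. *Abcb1a* minus *Abcb1b* was 0.14 (-0.51 to 0.82; exact test, adjusted p = 0.723), which leaves room for a difference of up to 0.82.

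Among lipid transporters of subfamily A, *Abca8b*, of a cluster on chromosome 11, passed by edgeR, and DESeq2 and voom called *Abca13* as well. *Abca8b* belongs, with *Abca5*, *Abca6*, *Abca8a* and *Abca9*, to a group of lipid transporters whose substrates are little known; it lies at bases 109932190 to 109995845 (minus strand, GRCm38) and *Abca8a* is its neighbour at 110025634 to 110095978. *Abca8b* was at 0.47, 1.57 and 1.99 CPM in the lowest, median and highest control eyes and at 5.41, 10.2 and 26.5 CPM with Best1-Nrf2. The groups did not overlap, and the gap was present in mice 6 and 8 as well (6.73 and 5.41 CPM, against 1.19 and 1.14). The log2 fold change was 3.00 ± 0.39 (adjusted p = 7.48e-04, edgeR, higher in 9 of 9 mice, means 1.42 ± 0.55 and 12.5 ± 6.85 CPM), or 3.19 without these mice. *Abca8a* was at 11.4 ± 3.28 and 13.3 ± 11.4 CPM (log2 fold change, -0.20 ± 0.44). *Abca8a* minus *Abca8b* was -3.18 (95% interval, -4.61 to -1.71; exact sign-flip test, adjusted p = 0.025; *Abca8b* had the larger difference in 9 of 9 mice). They shared few sequences, with 3.23% of the 31-base words of *Abca8b* found in other genes, and an antisense gene over part of its exons, *Gm11697*, had 13 counts against 4939. *Abca9* and *Abca5* were at log2 fold changes of -0.02 and -0.19, and *Abca6* was not tested (178 counts).

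*Abca4*, the flippase of retinoid adducts, was the most abundant member of subfamily A per length and was at 62.1, 144 and 334 CPM in the lowest, median and highest control eyes and 95.4, 176 and 270 CPM with Best1-Nrf2. The groups overlapped almost entirely, and the log2 fold change was 0.20 ± 0.22 (adjusted p = 0.830, edgeR), or -0.02 without mice 6 and 8. The within-mouse differences went both ways, from -0.91 (mouse 1) and -0.90 (mouse 5) to 0.87 (mouse 8) and 1.08 (mouse 6) on the log2 scale. Summed RPE markers went from 39475 to 16175 CPM in mouse 1 and from 50523 to 14073 in mouse 5. They went from 11568 to 24796 in mouse 8 and from 20679 to 52234 in mouse 6. *Ttr* had the highest mean in this list (12874 and 18046 CPM in control and treated eyes). By contrast, *Rpe65*, *Rlbp1*, *Lrat*, *Rgr* and *Ermn* were lower in 9 of 9 mice, so the rises do not hold for those markers. Summed cone markers fell in mice 1, 5 and 8 and rose in mouse 6, and the part of either sum in the *Abca4* values was not tested. *Abca1*, which loads cholesterol and phospholipid onto apolipoproteins, was at 52.0 ± 23.9 and 49.3 ± 21.6 CPM (log2 fold change, -0.09 ± 0.20). *Abca1* minus *Abca4* was -0.28 (95% interval, -1.07 to 0.45; exact test, adjusted p = 0.578). *Abca2* and *Abca3*, lipid transporters of lysosomes and related organelles, were at log2 fold changes of 0.73 (adjusted p = 0.272, higher in 7 of 9 mice) and 0.11. *Abca7*, a phospholipid transporter, was at 0.34, and *Abca12*, known from skin, at -0.14. *Abca13* was at 0.34 ± 0.36 CPM in control eyes and 1.79 ± 2.40 CPM with Best1-Nrf2, and the log2 fold change was 2.34 ± 1.05 (adjusted p = 0.371, edgeR, higher in 7 of 9 mice). The control eye was higher in mice 6 and 8 alone, so a larger change follows from leaving them out, and fits without them are a description. The log2 fold change was 3.45 without them (adjusted p = 0.00871, edgeR) and 3.39 without mice 3, 6 and 8 (adjusted p = 0.0295, edgeR). DESeq2 and limma voom called the gene in all 9 mice, at log2 fold changes of 2.46 (adjusted p = 0.0185) and 3.10 (adjusted p = 0.0186).

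In subfamily B, *Abcb4* rose. It encodes the floppase that brings phosphatidylcholine to the outer leaflet, best known from bile. It was at 1.38, 2.22 and 4.34 CPM in the lowest, median and highest control eyes and at 2.44, 4.74 and 10.9 CPM with Best1-Nrf2. The groups overlapped, since control eyes 1 and 3 (3.94 and 4.34 CPM) lay above the treated eyes of mice 6 and 8. The log2 fold change was 1.08 ± 0.25 (adjusted p = 0.0319, edgeR, higher in 9 of 9 mice, means 2.45 ± 1.04 and 5.25 ± 2.47 CPM), and 1.20 without mice 6 and 8. The call was lost without mice 3, 6 and 8 (1.18, adjusted p = 0.0786), without mouse 2 (adjusted p = 0.0627), 3 (0.0757), 4 (0.0915), 5 (0.0966), 7 (0.107) or 9 (0.0702), at log2 fold changes of 0.98 to 1.11, and with no filter on low counts (adjusted p = 0.0524). Of its 31-base words, 4.74% occur in other genes.

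Of the organelle transporters of subfamily B given here, none passed by edgeR, and voom called *Abcb9* lower. *Abcb8*, of the inner mitochondrial membrane, was the most abundant of them per length, at 52.9 ± 9.56 and 49.2 ± 11.9 CPM (log2 fold change, -0.13). *Abcb10*, of the same membrane, was at 0.40. *Abcb6*, linked to porphyrin transport, was at 10.2 ± 2.48 and 14.8 ± 4.45 CPM, and the log2 fold change was 0.53 ± 0.19 (adjusted p = 0.194, edgeR, higher in 8 of 9 mice). Of its 31-base words, 52.1% are shared with the overlapping gene *Gm29253*, which had 66 counts in all libraries against 8640. *Abcb9*, a lysosomal peptide transporter, was at 25.9 ± 12.3 and 18.5 ± 6.81 CPM (log2 fold change, -0.45; adjusted p = 0.211, edgeR, lower in 8 of 9 mice). It was at -0.53 by voom (adjusted p = 0.0481) and at -0.45 by DESeq2 (adjusted p = 0.102).

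The peroxisomal transporters of subfamily D import very long chain fatty acids. *Abcd3* was the ABC gene with the highest level per length in control eyes and was at 108, 142 and 202 CPM in the lowest, median and highest control eyes and 72.4, 136 and 281 CPM with Best1-Nrf2. Its log2 fold change was -0.0018 ± 0.20, and 0.24 without mice 6 and 8. *Abcd2*, a transporter of the same group, was at 8.46 ± 5.32 CPM in control eyes and 4.43 ± 2.65 CPM with Best1-Nrf2, and the log2 fold change was -0.91 ± 0.30 (adjusted p = 0.155, edgeR, lower in 7 of 9 mice). Without mice 6 and 8 it was -1.20 (adjusted p = 0.0339), and without mice 3, 6 and 8 it was -1.14 (adjusted p = 0.0912). DESeq2 and voom called it lower (adjusted p = 0.0292 and 0.00784). *Abcd4*, linked to cobalamin transport from lysosomes, was at 0.04.

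In subfamily G, *Abcg1*, which exports cholesterol to high-density lipoprotein, was at 19.3 ± 14.5 and 15.9 ± 10.5 CPM (log2 fold change, -0.28 ± 0.42, 0.02 without mice 6 and 8). *Abcg4* and *Abcg5*, sterol transporters, were at -0.0006 and -0.09. *Abca1* minus *Abcg1* was 0.21 (95% interval, -0.87 to 1.37; exact test, adjusted p = 0.723). Of the sulfonylurea receptors of subfamily C, which gate potassium channels in place of transport, *Abcc8* was at -0.27 and *Abcc9* at 0.12 (5.56 ± 2.82 and 7.58 ± 6.83 CPM). *Abcc8* minus *Abcc9* was -0.25 (95% interval, -1.99 to 1.47; exact test, adjusted p = 0.723).

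**Figure D3:**
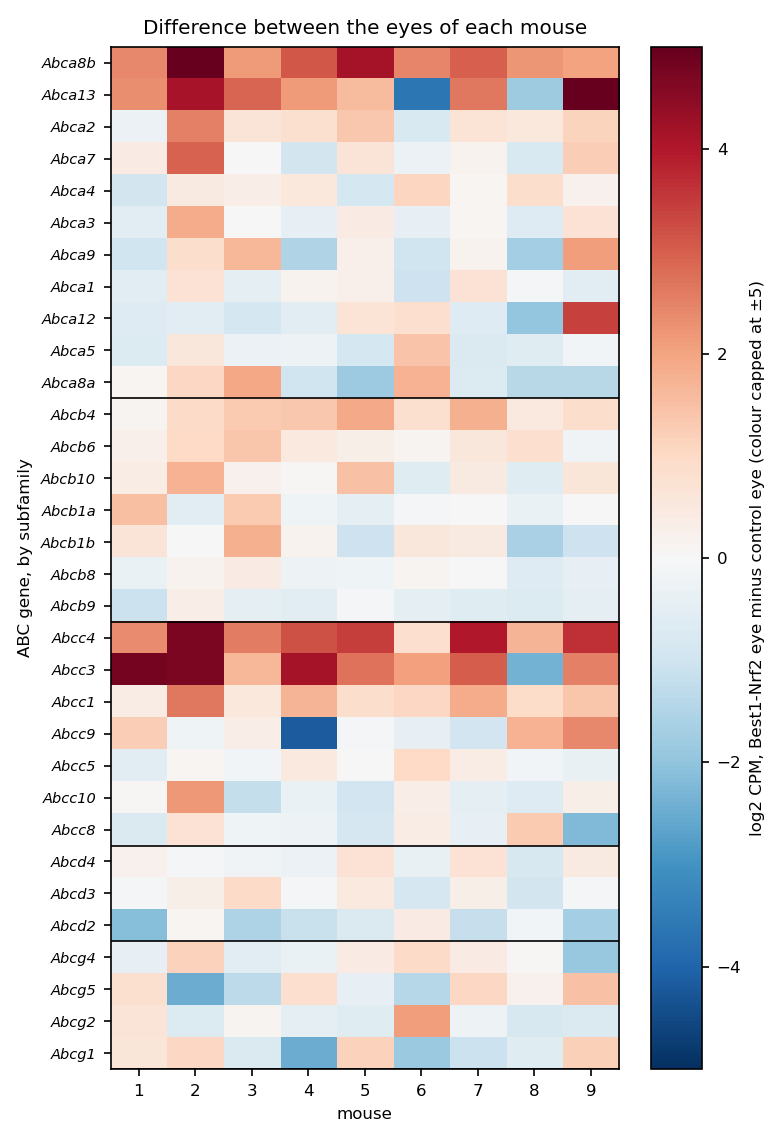
Within-mouse difference in log2 CPM (Best1-Nrf2 eye minus control eye, colour, capped at the ends of the scale) for 32 of the 34 tested ABC genes (rows, by subfamily) in 9 mice (columns). *Abca8b*, *Abcc4*, *Abcc1* and *Abcb4* are higher in 9 of 9 mice, *Abcc3* is lower in mouse 8, and *Abca13* is lower in mice 6 and 8.

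Levels were compared between members as CPM per kb of exon. In control eyes the order was *Abcd3* (21.9 ± 5.30 CPM per kb), *Abca4* (12.8 ± 6.94), *Abcb8* (11.2 ± 2.02), *Abcc4* (6.97 ± 2.66), *Abca1* (5.01 ± 2.31), *Abca2* (4.94 ± 4.67) and *Abcc1* (4.71 ± 2.10). *Abca4* and *Abcb8* were closer than their spread, as were *Abca1*, *Abca2* and *Abcc1*, and *Abcd3* was first in 8 of 9 control eyes. In Best1-Nrf2 eyes *Abcc4* came first at 64.3 ± 40.2 CPM per kb, followed by *Abcd3* (22.6 ± 8.72), *Abca4* (13.6 ± 4.46), *Abcc1* (11.2 ± 4.31) and *Abcb8* (10.4 ± 2.52). *Abcc4* was first in 7 of 9 treated eyes, and the last 3 of these did not differ beyond their spread. *Abca8b*, despite a fold change as large as that of *Abcc4*, stayed low at 0.19 ± 0.074 and 1.68 ± 0.92 CPM per kb, as did *Abcc3* (0.24 ± 0.44 and 0.81 ± 0.49) and *Abcb4* (0.26 ± 0.11 and 0.56 ± 0.26).

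**Figure D4:**
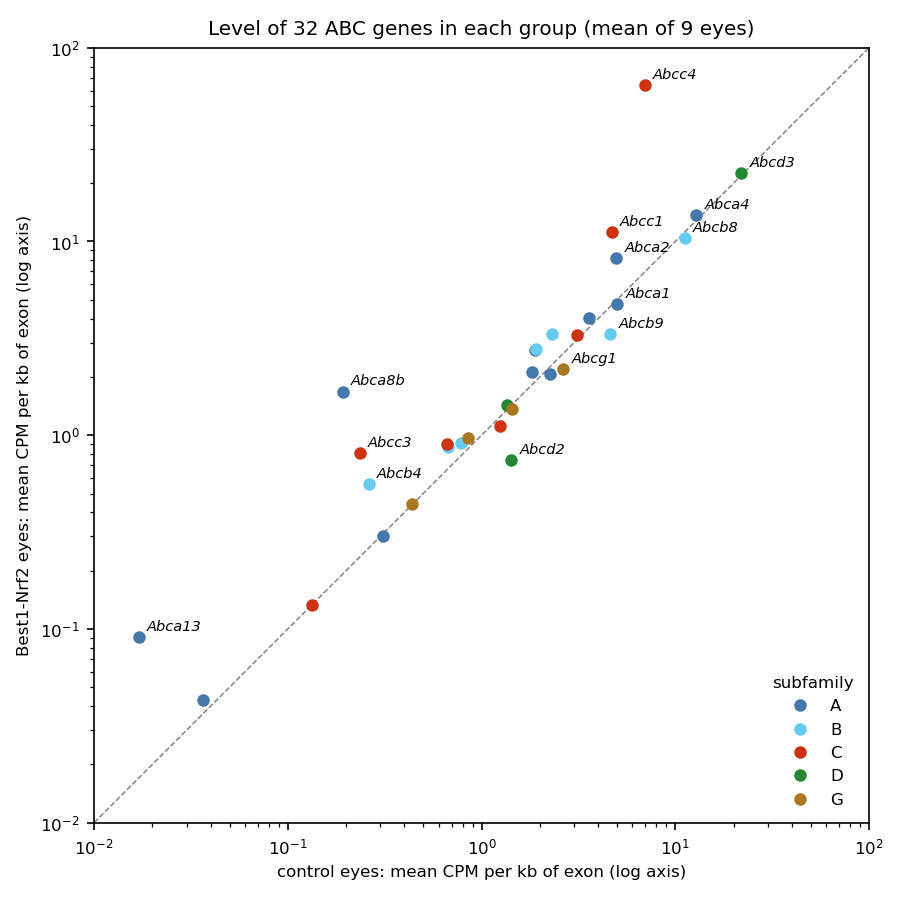
Mean level of 32 of the 34 tested ABC genes in control eyes (x axis) and Best1-Nrf2 eyes (y axis), both in CPM per kb of exon on log axes, coloured by subfamily; the dashed line marks equal levels. *Abcc4* (6.97 and 64.3 CPM per kb) is the farthest of the abundant genes from the line, and *Abca8b* and *Abcc3* lie above it at low levels.

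The summed level of the 46 genes was 106 ± 30.5 CPM per kb in control and 179 ± 63.6 CPM per kb in Best1-Nrf2 eyes and was higher in 8 of 9 mice. Without *Abcc4*, the sums were 99.3 ± 28.2 and 115 ± 29.9 CPM per kb, and the Best1-Nrf2 eye was higher in 7 of 9 mice. *Abcc4* supplied 6.52 ± 1.46% of the sum in control and 33.0 ± 13.4% in Best1-Nrf2 eyes. Its treated share was lowest in mice 6 (12.9%), 3 (13.5%) and 8 (22.4%) and was 32.1% or more in the others. Subfamily C thereby went from 16.2 ± 1.44% to 43.1 ± 12.5% of the sum, and subfamily B from 22.9 ± 2.26% to 14.4 ± 3.31%. These shares are parts of 1 total, so a rise of 1 gene lowers the rest.

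**Figure D5:**
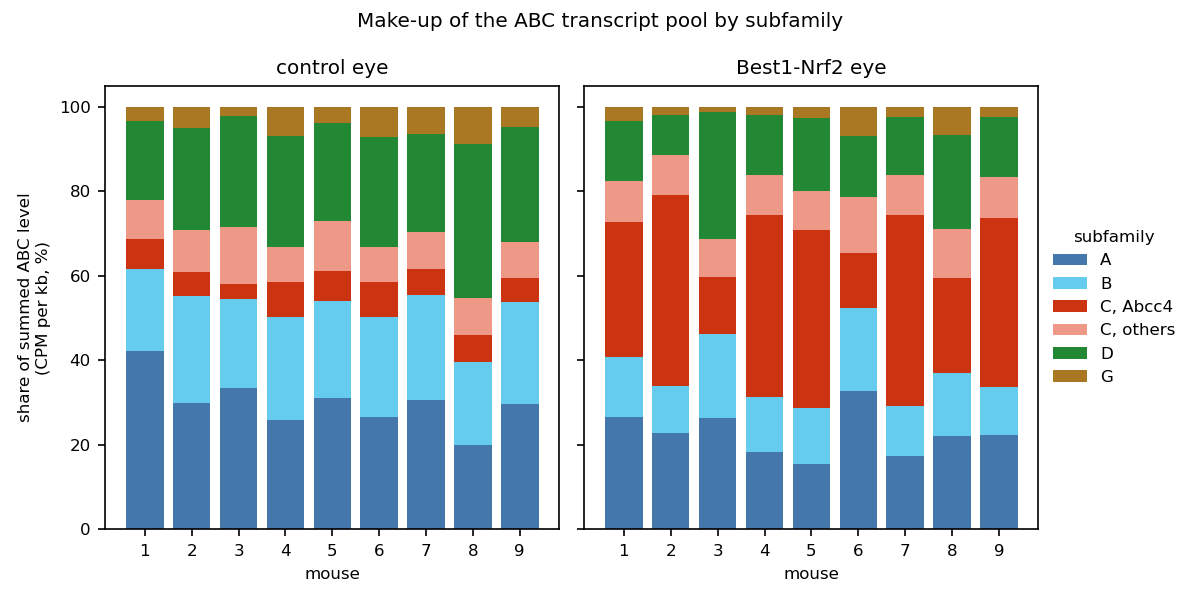
Share of the summed ABC level (CPM per kb, %, y axis) held by each subfamily in the control eye (left) and the Best1-Nrf2 eye (right) of 9 mice (x axis), with *Abcc4* apart from the rest of subfamily C. The *Abcc4* share is 3.64% to 8.31% in control eyes and 12.9% to 45.2% in Best1-Nrf2 eyes.

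Genes that work with these transporters were counted from lists, beside 3.12% higher and 1.13% lower among all genes tested. Of 7 ABC proteins under other symbols (*Abce1*, *Abcf1* to *Abcf3*, *Tap1*, *Tap2* and *Cftr*), *Cftr*, a chloride channel of the C subfamily, rose from 1.09 ± 0.31 to 3.12 ± 1.23 CPM (log2 fold change, 1.46; adjusted p = 0.00569, edgeR, higher in 9 of 9 mice). Of 15 tested genes of cholesterol efflux and LXR signaling, *Lpl*, which releases fatty acids from lipoproteins, rose (2.16), and *Pltp*, a phospholipid transfer protein (-0.98), and *Cyp27a1*, which oxidizes cholesterol (-0.91), fell. Of 9 carriers that take up organic anions, *Slco2b1* rose (1.40) and *Slco1a4* (-0.80), *Slco1a5* (-1.16) and *Slco1c1* (-1.59) fell. The median log2 fold change of these carriers was -0.62. *Kcnj8*, the channel pore that pairs with the product of *Abcc9*, fell from 55.0 ± 26.1 to 13.2 ± 2.68 CPM (log2 fold change, -1.92; adjusted p = 3.75e-04, edgeR, lower in 9 of 9 mice); it is also 1 of the pericyte markers, and *Abcc9* itself was at 0.12. Of 9 genes of heme synthesis and 15 of peroxisome biogenesis, 0 and 0 passed by edgeR, by DESeq2, by voom or at an unadjusted p under 0.05. Their median log2 fold changes were 0.12 (range, -0.17 to 0.17) and -0.02 (-0.43 to 0.28). Of 9 tested regulators of ABC genes, only *Nfe2l2* passed (2.29); *Rxra*, *Rxrb*, *Ahr*, *Nr1h4*, *Nr1i3* and the 3 PPAR genes lay between -0.67 and 0.70.

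The 5 calls were not kept when marker levels entered the model. With the level of rod and cone markers as a term, *Abcc4* was at 1.20 (adjusted p = 0.301), *Abca8b* at 2.80 (0.140), *Abcc1* at 1.05 (0.303), *Abcc3* at 1.90 (0.550) and *Abcb4* at 0.98 (0.408), and 41 genes in all were called (edgeR). With macrophage and microglia markers as the term, these values were 2.78, 3.28, 1.09, 5.28 and 1.28, and 21 genes in all were called. All 5 kept their direction in both models. The marker levels themselves differed between the groups, so the term and the group overlap in what they describe.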

How the data were processed

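RNA of 18 RPE samples, 9 per group, was sequenced after low-input amplification of poly(A) RNA. Reads were aligned by the authors to mm10 with Ensembl transcripts using STAR and counted with featureCounts, and in parallel quantified with Salmon (version 0.8.1 per the labels' processing notes). The deposited values are expected counts per gene, estimated counts rounded to whole numbers. The counter behind the table is not given in the sources used here, and the unit was inferred from the values. No molecular identifiers were described. The SD and SE given with the results reflect variation between eyes and mice, not counting error alone. Totals ranged from 18956748 to 49598700 counts per library, and no pair of libraries in a group was alike within sampling noise (chi-square per degree of freedom at least 50.8 over 72 pairs). Which library was in which sequencing run is not given in the sources used here, so run was not a term.

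Symbols, coordinates and exon lengths were taken from GENCODE mouse release M21 (GRCm38) for 47224 of 47729 gene IDs. The filter of filterByExpr left 18958 genes with 99.9% of counts (R 4.3.3), libraries were scaled by TMM, and edgeR 4.0.16 quasi-likelihood tests were run on all of them with mouse as a block and adjusted by Benjamini-Hochberg. The numbers that pair the eyes are individuals in the labels; after removal of group means, the 2 eyes of a mouse had a correlation with a median of -0.00095 (range, -0.37 to 0.64). Log2 CPM used a prior count of 2. The SE of a log2 fold change came from the F statistic. Pairs of members were compared by a 2-sided exact sign-flip permutation test over mice, and intervals are the shifts that this test did not reject. The members, roles, partner lists, marker lists and pairs were chosen with earlier results of these data known. Given in full were members past the threshold, the member with the highest level per length in each subfamily, and 15 genes listed by name; *Abca2*, *Abca5*, *Abca8a*, *Abca9*, *Abca13*, *Abcb9*, *Abcc9* and *Abca3*, and other members given by a fold change alone, were named after their values were seen. Values of 2 members, and pairs that hold them, are not reported here; these genes stayed in the fits, counts, sums and adjustments. Lists were described by counts and medians. Shared reads were estimated from 31-base words found in other genes, and the counting was not stated to use strand. RefSeq promoter windows (GRCm38.p6) were searched for letters on both strands.

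Alternatives were no replicate block, RLE and upper-quartile scaling, DESeq2 1.42.0, limma 3.58.1 voom with sample weights, no count filter, at least 10 counts in every library, a threshold of 0.1, covariates of rod and cone or of macrophage markers, and leaving out each mouse; leaving out mice 6 and 8, or 3, 6 and 8, was added after the data were seen. On simulated data with 18958 genes, edgeR recovered 19% of 100 planted changes of 1 on the log2 scale and 71% of 100 of 2, with 2.17% false calls (DESeq2, 45%, 91% and 28.4%; voom, 21%, 81% and 4.67%).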

Additional observations from a re-analysis of the deposited data

Results flagged for a closer look

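In 68 groups of 9 libraries (34 ABC genes in each group), a library whose gap to the nearest of the others exceeded Dixon's 95% critical value was found in 5, where 3.4 are found by chance. Values are log2 CPM. *Abca3* was highest in control eye 1, at 6.61 against 5.26 in the next control eye (4207 counts). Its exons overlap those of *D330041H03Rik* on the opposite strand over 9.75% of their length. *Abcb1b* was highest in the Best1-Nrf2 eye of mouse 3, at 4.91 against 2.69 (778 counts). *Abcb6* was lowest in control eye 8, at 2.29 against 3.13 (85 counts). In the Best1-Nrf2 eye of mouse 8, *Abcb8* was lowest at 4.64 against 5.40 (767 counts), and *Abca9* was lowest at -2.01 against 0.24, on only 6 counts. Mouse 8 supplied 3 of the 5, and control eye 8 also had the lowest sum of RPE markers, as given above. No gene that passed the threshold was among them.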

How the results depend on the processing

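The 5 members called higher became 4 without the replicate block (*Abcc3* lost), 4 without a count filter (*Abcb4* lost), 4 with at least 10 counts in every library, 5 under RLE, upper-quartile scaling or a threshold of 0.1, 6 under DESeq2 and voom, 6 without mice 6 and 8, 5 without mice 3, 6 and 8 (4 of them the same), 3 to 5 with each mouse left out, and 0 with either covariate. The count of lower members (0) was 1 under DESeq2, 2 under voom, 1 without mice 6 and 8 and 0 with each mouse left out. *Abcc4*, *Abcc1* and *Abca8b* were called in all 9 fits that left out a mouse. Over all genes, 806 calls became 1478 under DESeq2 and 1426 under voom, and 41 and 21 with the rod and cone or macrophage covariate. The cause was not tested. Over all of these settings, apart from single mice left out, subfamily medians ranged from -0.46 (rod and cone covariate) to 0.30 (without mice 6 and 8) in A, -0.077 (rod and cone covariate) to 0.34 (voom) in B, -0.0082 (without mice 6 and 8) to 1.00 (rod and cone covariate) in C, -0.25 (rod and cone covariate) to 0.23 (without mice 6 and 8) in D and -0.16 (voom) to 0.033 (rod and cone covariate) in G, and with each mouse left out ranged from -0.07 to 0.25 (A), 0.08 to 0.19 (B), 0.12 to 0.50 (C), -0.05 to 0.13 (D) and -0.17 to -0.0021 (G).

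Some estimates changed sign, none of them past the threshold on either side. Most were near 0, but *Abca13* (2.34), *Abcd2* (-0.91) and *Abca2* (0.73) also turned under the rod and cone covariate. Without the block these were *Abca8a* 0.22, *Abcb1b* 0.37, *Abcd3* 0.047 and *Abcg2* 0.18. Under voom they were *Abca1* 0.022, *Abca9* 0.11, *Abcb1b* 0.35 and *Abcd3* 0.16, and without a filter *Abca9* 0.0024, *Abcb1b* 0.016 and *Abcd3* 0.022. The rod and cone covariate gave *Abca13* -4.71, *Abca2* -0.38, *Abca5* 0.55, *Abca8a* 0.76, *Abcb1a* -0.10, *Abcb1b* 0.28, *Abcc9* -1.01, *Abcd2* 0.22 and *Abcg2* 1.19. The macrophage covariate gave *Abca4* -0.10, *Abca5* 0.10, *Abca8a* 0.17, *Abcb1b* 0.72, *Abcb8* 0.0074, *Abcc9* -2.37, *Abcd3* 0.17 and *Abcg2* 0.50. Without mice 6 and 8 they were *Abca1* 0.048, *Abca4* -0.022, *Abca9* 0.37, *Abcb1b* 0.14, *Abcc5* -0.0082, *Abcc9* -0.062, *Abcd3* 0.24 and *Abcg1* 0.017, and without mice 3, 6 and 8 *Abca1* 0.13, *Abca4* -0.084, *Abca9* 0.15, *Abcc9* -0.14, *Abcd3* 0.12 and *Abcg1* 0.16. With each mouse left out the ranges were *Abca1* -0.19 to 0.026, *Abca8a* -0.45 to 0.020, *Abca9* -0.29 to 0.19, *Abcb1a* -0.000312 to 0.21, *Abcb1b* -0.19 to 0.20, *Abcc5* -0.024 to 0.22, *Abcc9* -0.17 to 0.50 and *Abcd3* -0.085 to 0.11.

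With 8 mice the smallest exact p is 0.0078, and the pairs that passed and are given were at or over the threshold in some of these fits, with differences of -3.55 to -2.83 (*Abca8a* minus *Abca8b*), -1.92 to -1.57 (*Abcc1* minus *Abcc4*), 2.72 to 3.28 (*Abcc4* minus *Abcb1b*), 2.62 to 3.22 (*Abcc4* minus *Abcc5*) and 2.71 to 3.54 (*Abcc4* minus *Abcg2*). *Abcc1* minus *Abcc3* (-1.90 to -0.93; -2.03 without mice 6 and 8) passed in some. *Abca1* minus *Abcg1* (-0.088 to 0.46), *Abcb1a* minus *Abcb1b* (-0.0072 to 0.23), *Abcc8* minus *Abcc9* (-0.77 to 0.30) and *Abcg1* minus *Abcg2* (-0.50 to 0.23) spanned 0. Without mice 6 and 8, *Abcg1* minus *Abcg2* was 0.24 and *Abca1* minus *Abca4* was 0.077, and without mice 3, 6 and 8 they were 0.42 and 0.22. The 5 pairs given that passed did not pass with those 6 mice (smallest exact p, 0.031), at -4.02 (*Abca8a* minus *Abca8b*), -2.09 (*Abcc1* minus *Abcc4*), 3.69, 3.55 and 3.91 (*Abcc4* minus *Abcb1b*, *Abcc5* and *Abcg2*), adjusted p = 0.0714. Counts were lowest for *Abca12* (383 in all libraries), *Abcc8* (730), *Abca13* (783) and *Abcg5* (832) among tested members, and the effect of depth was not tested.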
